A study of Mus musculus with 12 samples.

Results

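The genes of the liver sinusoidal endothelial cell described here were Stab1, Stab2, Clec4g, Lyve1, Kdr, Pecam1, Oit3, Dnase1l3, Fcgr2b and Gpr182. They were taken by symbol as a list of markers, and all 10 were found among the 40840 genes of each library. This list and the wider lists below were chosen with earlier results of these data known. The shares of all genes set beside their counts are therefore a description. The 12 RNA-seq libraries came from a liver immune cell fraction, labelled hepatic macrophages, with 3 libraries in each of 4 groups. WT-NCD and WT-HFD were wild-type mice, C57BL/6 by the labels and C57BL/6J by the study's methods, on normal chow diet (NCD) or high-fat diet (HFD), and Casp11-/- NCD and Casp11-/- HFD carried the strain label B6.129S4(D2)-Casp4tm1Yuan/J, a knockout of the gene for caspase-11, and were fed the same diets. Per the study's methods, the mice were male, 8 to 10 weeks old at the start and fed for 12 weeks, and the cells were obtained by portal perfusion, digestion and a Percoll step that separates hepatocytes, with no cell sort named for the RNA. The labels number the libraries of a group but do not say that each came from a separate mouse, so each p-value below measures the spread between these libraries.

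Liver sinusoidal endothelial cells line the capillaries of the liver. Their wall is perforated and has no closed basement membrane, so plasma reaches the hepatocytes directly. They are known as the scavenger endothelium of the body, taking up denatured matrix, modified lipoproteins and small immune complexes from portal blood, and they are the neighbours of the Kupffer cells, which sit on their inner surface.

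The promoters of the markers that moved together, and of Fcgr2b, which did so less closely, are shown here for their sequence. RefSeq promoters, spanning 250 bases before to 50 bases after the transcript start on GRCm38.p6, were found for 5 of the 10 genes, namely Stab1, Stab2, Clec4g, Kdr and Fcgr2b. All of them lie on the minus strand and are written 5′ to 3′ along the gene. Capitals mark matches, on either strand, to AGGAAG (which contains the shorter core of ETS factor sites). They also mark AGATAA (1 form of the site that factors of the GATA family bind) and TATAAA (the TATA box), again on either strand. The shorter ETS core by itself and other forms of the GATA site were not counted.
Stab1 (chr14:31168592-31168891): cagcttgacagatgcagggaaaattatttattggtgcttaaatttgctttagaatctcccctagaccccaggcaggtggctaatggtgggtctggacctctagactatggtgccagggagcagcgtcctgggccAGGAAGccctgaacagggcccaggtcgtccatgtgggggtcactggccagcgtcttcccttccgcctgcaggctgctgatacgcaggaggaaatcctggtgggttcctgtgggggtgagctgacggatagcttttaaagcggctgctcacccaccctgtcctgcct
Stab2 (chr10:87007893-87008192): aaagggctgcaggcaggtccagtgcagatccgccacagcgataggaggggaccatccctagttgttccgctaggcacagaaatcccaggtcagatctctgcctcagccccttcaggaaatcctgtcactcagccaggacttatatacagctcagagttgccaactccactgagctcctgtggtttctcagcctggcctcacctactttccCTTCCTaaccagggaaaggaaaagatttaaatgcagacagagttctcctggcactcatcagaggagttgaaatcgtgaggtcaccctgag
Clec4g (chr8:3720602-3720901): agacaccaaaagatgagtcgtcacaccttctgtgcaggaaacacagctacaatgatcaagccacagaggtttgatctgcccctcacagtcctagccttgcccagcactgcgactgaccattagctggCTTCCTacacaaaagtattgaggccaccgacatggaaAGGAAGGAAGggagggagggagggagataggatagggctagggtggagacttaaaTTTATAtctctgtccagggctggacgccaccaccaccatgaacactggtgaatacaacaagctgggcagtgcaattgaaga
Kdr (chr5:75978406-75978705): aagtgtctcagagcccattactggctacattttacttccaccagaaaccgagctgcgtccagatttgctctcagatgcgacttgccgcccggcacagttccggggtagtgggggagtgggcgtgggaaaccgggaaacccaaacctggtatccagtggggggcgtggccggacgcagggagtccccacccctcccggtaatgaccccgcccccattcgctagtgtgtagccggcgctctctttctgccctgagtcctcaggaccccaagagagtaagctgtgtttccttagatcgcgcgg
Fcgr2b (chr1:170976022-170976321): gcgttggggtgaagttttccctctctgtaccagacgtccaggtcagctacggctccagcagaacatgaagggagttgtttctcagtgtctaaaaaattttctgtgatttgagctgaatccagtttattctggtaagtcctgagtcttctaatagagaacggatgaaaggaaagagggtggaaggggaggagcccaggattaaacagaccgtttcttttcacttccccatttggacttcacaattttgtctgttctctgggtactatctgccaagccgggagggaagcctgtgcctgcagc
AGGAAG or its reverse complement was found 1 time in the Stab1 promoter, 1 time in Stab2 and 3 times in Clec4g, where 2 of the matches overlap, and it had no match in Fcgr2b or Kdr. Of all 32851 promoters of this length, 35.4% held it. TATAAA was found 1 time, in Clec4g, against 13.6% of all promoters, and AGATAA in none of the 5 against 11.2%. A match of 6 letters is a description of the sequence and not a binding site.

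The values are TPM, a read level corrected for transcript length and scaled to the sum of each library, in which low values had been raised to a floor of 1.01. The files give no sequencing depth. WT-NCD replicate 3 stood apart from the other libraries, with 39677 genes above the floor against 12940 to 18775 and a median correlation with the others of -0.23 against 0.89 to 0.95. Each test is therefore given with all 12 libraries and with the 11 others. Protein-coding genes held 15.7% to 42.4% of the TPM in the 11 libraries, with 22.3% to 42.4% on NCD and 15.7% to 25.2% on HFD. Levels are therefore also given on a protein-coding scale, on which the protein-coding genes of each library sum to 1000000. In the limma fits on the protein-coding scale that sum was instead set to its median over the libraries, and low values were raised to a common floor. Casp4, the gene deleted in the knockout, stood at 5.597 to 15.6 TPM in the WT libraries and at 2.56 to 15.2 TPM in those labelled Casp11-/-, of which 2 lay inside the WT range, Casp11-/- NCD replicate 3 (15.2 TPM) and Casp11-/- HFD replicate 2 (8.68 TPM). The column header of the latter also names its genotype differently from its title, so the genotypes below are those of the labels.

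All 10 genes lay above the floor of 1.01 TPM in every library of the fraction labelled hepatic macrophages. The lowest value in the 11 libraries, 1.57 TPM for Lyve1 in Casp11-/- NCD replicate 1, was near that floor. In the 11 libraries the 10 genes together made up 0.0489% to 0.942% of the protein-coding TPM, lowest in Casp11-/- NCD replicate 1 and highest in Casp11-/- HFD replicate 3. Their summed level exceeded the summed level of 10 Kupffer cell markers in every one of these 11 libraries, by 1.16 to 8.01 times. That order rested in part on Fcgr2b and Pecam1, which other cells also make. They held 58.7 and 57.6 of the 183 TPM in Casp11-/- NCD replicate 1, where the Kupffer cell sum was 144 TPM. In WT-HFD replicate 1 they held 210.1 and 56.7 of 1068 TPM, beside 917 TPM. Without these genes the Kupffer cell sum was the higher in both libraries. Lyve1 was the lowest of the 10 genes in 11 of 11 libraries. Fcgr2b was the highest in 7 of 11 and Dnase1l3 in the other 4, Fcgr2b in 5 of 5 NCD libraries and Dnase1l3 in 4 of 6 HFD libraries. In WT-NCD replicate 3 the 10 genes stood at 1.31 to 8.33 TPM.

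**Figure D1:**
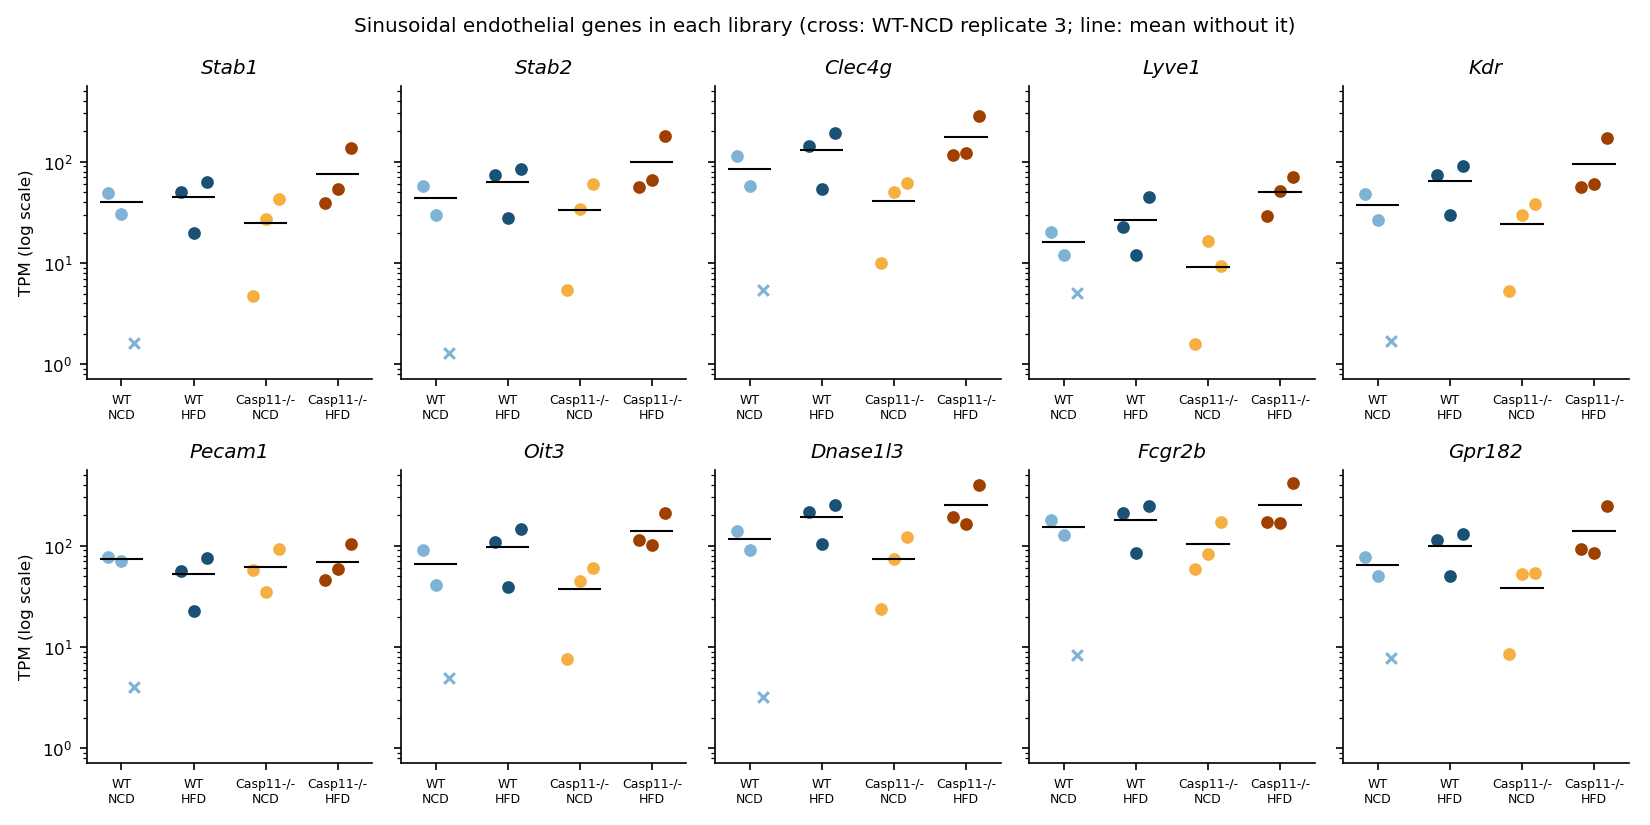
TPM of each of the 10 sinusoidal endothelial genes (log axis) in every library of the 4 groups. Points are libraries, the cross is WT-NCD replicate 3 and the line is the group mean without it. Casp11-/- HFD replicate 3 is the highest library in all 10 panels, and Casp11-/- NCD replicate 1 is the lowest of the 11 circles in every panel but Pecam1.

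Stab1 and Stab2 encode the stabilins, giant scavenger receptors of the sinusoidal wall that bind oxidized lipoproteins and, for Stab2, hyaluronan. Stab1 (chromosome 14, 31139013 to 31168641, GRCm38, minus strand) stood at 49.2, 30.4 and 1.64 TPM in WT-NCD replicates 1, 2 and 3, at 50.01, 19.8 and 63.8 TPM in WT-HFD, at 4.77, 27.5 and 42.7 TPM in Casp11-/- NCD and at 38.9, 53.5 and 136 TPM in Casp11-/- HFD. Stab2 (chromosome 10, 86841198 to 87008025, minus strand) stood, in the same order, at 57.0, 29.9 and 1.31, at 74.8, 28.0 and 84.7, at 5.43, 34.1 and 60.7, and at 56.2, 65.4 and 178 TPM. The diets overlapped for both genes in both genotypes, with WT-HFD replicate 2 below WT-NCD replicates 1 and 2, and Casp11-/- NCD replicate 1 below all other chow libraries but WT-NCD replicate 3. Over the 11 libraries Stab2 averaged 37.4 ± 22.5 TPM on NCD (SD, n = 5) and 81.1 ± 51.1 TPM on HFD (n = 6). On the protein-coding scale, the highest NCD value over the 11 libraries of Stab2 was 165 and the lowest HFD value was 175, so that on this scale the diets did not overlap. Stab1 reached 142 on NCD and began at 124 on HFD on the same scale, and so overlapped.

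Clec4g, a C-type lectin of the sinusoidal wall, and Lyve1, a hyaluronan receptor that this endothelium shares with lymphatic vessels, had the largest fitted diet differences of the 10 genes in the Casp11-/- libraries. Clec4g (chromosome 8, 3707064 to 3720651, minus strand) stood at 113, 57.9 and 5.40 TPM in WT-NCD, at 144, 53.9 and 190.4 TPM in WT-HFD, at 10.1, 50.5 and 61.3 TPM in Casp11-/- NCD and at 116, 123 and 284 TPM in Casp11-/- HFD. Lyve1 (chromosome 7, 110850607 to 110863239, minus strand) stood at 20.4, 11.9 and 5.10, at 22.9, 12.1 and 44.9, at 1.57, 16.7 and 9.40, and at 29.2, 51.5 and 70.1 TPM in the same groups. In the Casp11-/- libraries every HFD value of both genes lay above every NCD value, while in WT the diets overlapped through WT-HFD replicate 2. Over the 11 libraries Lyve1 averaged 11.99 ± 7.21 TPM on NCD (SD, n = 5) and 38.5 ± 21.1 TPM on HFD (n = 6), and Clec4g 58.5 ± 36.7 and 152 ± 78.3 TPM.

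Fcgr2b encodes the inhibitory Fc gamma receptor, which clears immune complexes in sinusoidal endothelium and is also made by B cells and macrophages. It (chromosome 1, 170958617 to 170976547, minus strand) stood at 180.1, 127 and 8.33 TPM in WT-NCD, at 210.1, 85.6 and 248 TPM in WT-HFD, at 58.7, 83.7 and 173 TPM in Casp11-/- NCD and at 171, 166 and 413 TPM in Casp11-/- HFD. The diets overlapped in both genotypes. Fcgr2b has near copies in the same gene family, and how reads shared between copies were counted is not given in the sources used here.

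Kdr encodes a receptor for vascular endothelial growth factor, and Gpr182 a G protein-coupled receptor of endothelial cells. Kdr (chromosome 5, 75932827 to 75978458, minus strand) stood at 48.5, 26.3 and 1.70 TPM in WT-NCD, at 73.9, 29.7 and 90.7 TPM in WT-HFD, at 5.31, 29.5 and 38.5 TPM in Casp11-/- NCD and at 56.0, 60.0 and 171 TPM in Casp11-/- HFD. Gpr182 (chromosome 10, 127747276 to 127751732, minus strand) stood at 78.1, 49.9 and 7.86, at 115, 50.4 and 130.9, at 8.62, 52.2 and 53.5, and at 92.4, 84.2 and 244 TPM. For both receptors the diets did not overlap in the Casp11-/- libraries and overlapped in WT, again through WT-HFD replicate 2. Kdr averaged 29.7 ± 16.1 TPM in the 5 NCD and 80.2 ± 48.7 TPM in the 6 HFD libraries (SD).

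Oit3, a zona pellucida domain protein, and Dnase1l3, a secreted nuclease that digests DNA in blood, were also taken as markers of this endothelium. Whether other cells of the fraction made them too was not tested. Oit3 (chromosome 10, 59422958 to 59441778, minus strand) stood at 90.8, 40.7 and 4.90 TPM in WT-NCD, at 108, 39.5 and 145 TPM in WT-HFD, at 7.56, 44.6 and 60.6 TPM in Casp11-/- NCD and at 114, 101 and 209.6 TPM in Casp11-/- HFD. Dnase1l3 (chromosome 14, 7964533 to 7994573, minus strand) stood at 141, 91.3 and 3.20, at 213, 103 and 254, at 23.6, 74.8 and 123, and at 190.8, 164 and 394 TPM. Both followed the pattern of Kdr, with every Casp11-/- HFD library above every Casp11-/- NCD library and an overlap in WT. Dnase1l3 averaged 90.8 ± 45.7 TPM in the 5 NCD and 219.9 ± 99.3 TPM in the 6 HFD libraries (SD).

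Pecam1, an adhesion molecule of all endothelium that leukocytes and platelets also carry, had a different pattern from the other 9 genes. It (chromosome 11, 106654217 to 106750628, minus strand) stood at 77.2, 70.2 and 3.99 TPM in WT-NCD, at 56.7, 22.9 and 76.5 TPM in WT-HFD, at 57.6, 34.6 and 93.3 TPM in Casp11-/- NCD and at 46.0, 58.4 and 103 TPM in Casp11-/- HFD. The diets overlapped in both genotypes, and Casp11-/- NCD replicate 1, the lowest of the 11 libraries for the other 9 genes, was in the middle of the Pecam1 range. Its mean was 66.6 ± 22.04 TPM in the 5 NCD and 60.6 ± 27.2 TPM in the 6 HFD libraries (SD).

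The first comparison asks whether the diet changed these genes, taking the mean of the diet effects in the WT and the Casp11-/- mice. With all 12 libraries none of the 10 genes was called at an adjusted p under 0.05 (limma on log2(TPM + 1), two-sided, Benjamini-Hochberg over 19498 genes), against 0.041% of all genes called higher on HFD. All 10 had higher fitted values on HFD. Their median difference was 1.84 on the log2 scale, beside -0.61 over all genes, and 7 of 10 reached an unadjusted p under 0.05, against 1.67% of all genes in that direction. The lowest adjusted p in this limma fit was 0.188, for Lyve1. Without WT-NCD replicate 3, 6 of the 10 rose on HFD, against 1.07% of 17950 genes called higher and 17.3% called lower. They were Lyve1 (log2 fold change 1.59 ± 0.45 SE, limma adjusted p = 0.0235), Kdr (1.40 ± 0.46, 0.0407), Clec4g (1.39 ± 0.46, 0.0404), Oit3 (1.35 ± 0.47, 0.0476), Gpr182 (1.29 ± 0.45, 0.0493) and Dnase1l3 (1.28 ± 0.43, 0.0420). The 4 genes not called in this limma fit were Stab2 (1.15 ± 0.49, adjusted p = 0.0931), Stab1 (0.92 ± 0.47, 0.160), Fcgr2b (0.69 ± 0.41, 0.214) and Pecam1 (-0.23 ± 0.39, 0.621). The median of the 10 genes was 1.29, beside -0.39 over all genes tested. The called set depended on single libraries, since leaving out 1 more of the 11 libraries left 0 to 6 genes called, with 0 of 10 without Casp11-/- NCD replicate 1 (lowest adjusted p 0.0647, limma) or without WT-NCD replicate 2 (0.118), 1 of 10 without WT-NCD replicate 1, WT-HFD replicate 1, WT-HFD replicate 3, Casp11-/- HFD replicate 1 or Casp11-/- HFD replicate 3, and 2 of 10 without WT-HFD replicate 2. Their median log2 fold change stayed between 0.90 and 1.52 in these fits. The share of all genes called with 1 more library left out is not given here, so whether the counts moved beyond the 10 genes is left unstated.

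**Figure D2:**
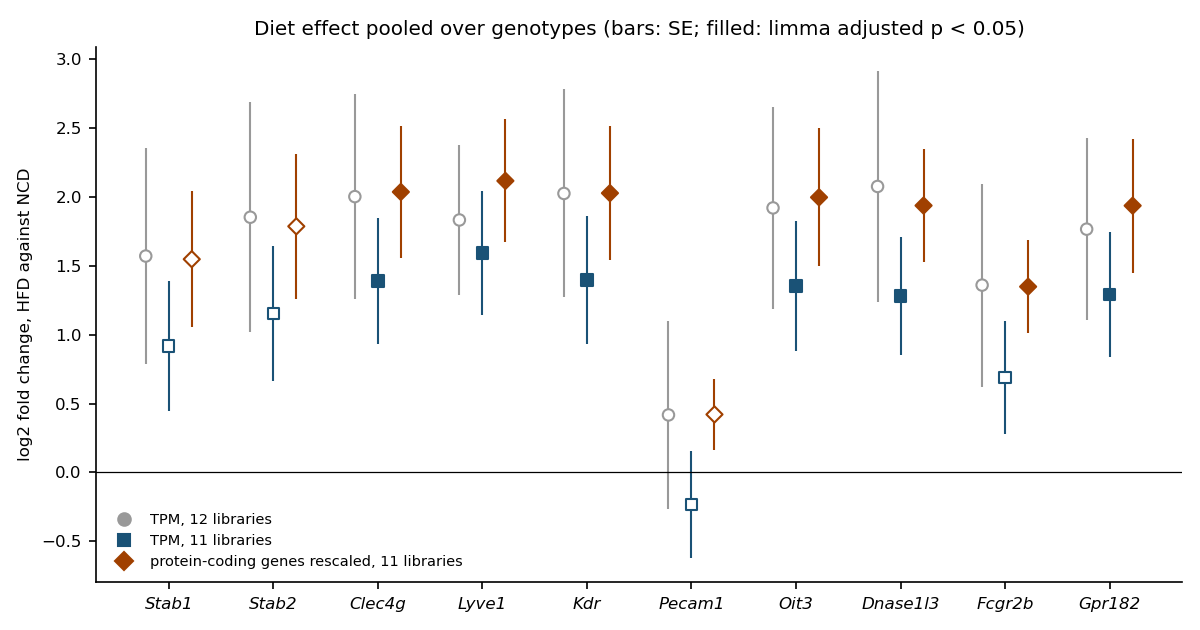
Log2 fold change on HFD against NCD, pooled over genotypes, for each gene in 3 fits, with bars of 1 SE and filled symbols for an adjusted p under 0.05. No symbol is filled for the 12 libraries, 6 are filled for the 11 libraries in TPM and 7 for the 11 libraries with protein-coding genes rescaled, and Pecam1 lies closest to 0.

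On the protein-coding scale the shift was larger, and all 10 genes lay above 0 in the 11 libraries. There 7 of 10 rose on HFD, against 4.3% of 14972 genes, with Fcgr2b (log2 fold change 1.35 ± 0.34 SE, limma adjusted p = 0.0259) joining the 6 named above, of which Lyve1 had 2.12 ± 0.45 (0.0116) and Clec4g 2.04 ± 0.48 (0.0204). Stab2 (1.79 ± 0.53, adjusted p = 0.0506, limma), Stab1 (1.55 ± 0.50, 0.0670) and Pecam1 (0.42 ± 0.26, 0.274) were not called. The median was 1.94, beside a median of all genes of 0.00 to 2 decimals. Leaving out 1 more library left 0 to 9 genes called on this scale, with 0 of 10 without WT-NCD replicate 2 (lowest adjusted p 0.0740, limma) and 2 of 10 without WT-HFD replicate 1. For these fits, too, the share of all genes called is not given here. With all 12 libraries on this scale 1 of 10 was called, Lyve1 (2.14 ± 0.44, limma adjusted p = 0.0372), against 1.11% of 15209 genes. By level, 7 of the 10 genes had every HFD value above every NCD value in the 12 libraries, Stab2, Clec4g, Lyve1, Kdr, Dnase1l3, Fcgr2b and Gpr182, where 1.46% of all genes did so. On the TPM scale 0 of 10 did so, against 0.231% of all genes.

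**Figure D3:**
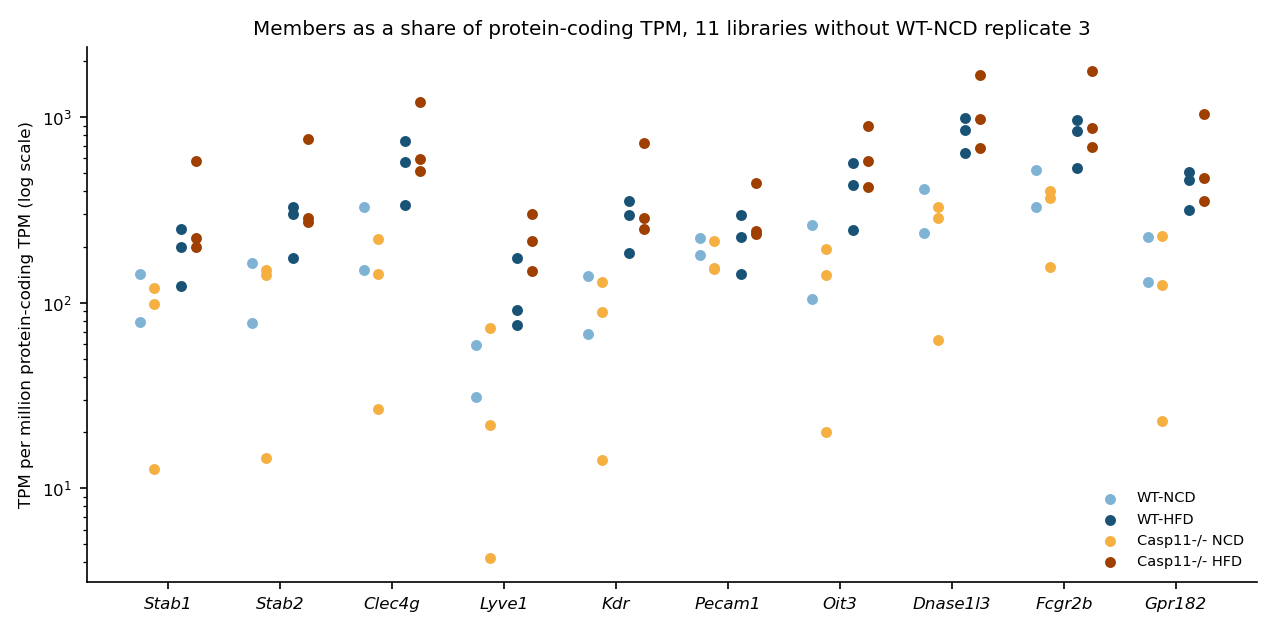
Level of each gene on the protein-coding scale (log axis) in the 11 libraries without WT-NCD replicate 3, coloured by group. The HFD libraries lie above all NCD libraries for Stab2, Clec4g, Lyve1, Kdr, Dnase1l3, Fcgr2b and Gpr182, and overlap them for Stab1, Pecam1 and Oit3. Of 17950 genes in these 11 libraries, 2.96% had every HFD value above every NCD value.

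Within the WT mice the diet comparison gave no call. In limma with 12 libraries 0 of the 10 genes passed, and 0 had an unadjusted p under 0.05, against 0.0103% of all genes called higher and 0.687% higher at the unadjusted p. The median log2 difference of the 10 genes was 1.55. Without WT-NCD replicate 3, which leaves 2 libraries in WT-NCD, 0 of 10 passed and 0 had an unadjusted p under 0.05 in limma, against 0.134% and 0.953% of all genes in the higher direction, and the median was 0.49. In that fit the values ran from 0.69 ± 0.69 (SE) for Kdr through 0.04 ± 0.71 for Stab1 to -0.65 ± 0.58 for Pecam1. On the protein-coding scale the WT differences were larger, again with 0 of 10 called in limma. With 12 libraries their median was 1.87 on the log2 scale, beside -0.19 over all genes, and 6 of 10 had an unadjusted p under 0.05, Clec4g, Dnase1l3, Fcgr2b, Gpr182, Kdr and Oit3, with 0.315 as the lowest adjusted p in limma, where 0.0855% of all genes were called higher and 7.11% were higher at the unadjusted p. With 11 libraries the median was 1.22, beside 0.10 over all genes, and 1 of 10 had an unadjusted p under 0.05, Dnase1l3 (1.38 ± 0.61 SE, limma adjusted p = 0.317), against 0.655% and 7.77% of all genes. Kdr then had 1.42 ± 0.72 and Pecam1, which was negative in TPM, 0.08 ± 0.38. WT-HFD replicate 2 was the lowest of the 6 HFD libraries in TPM for all 10 genes.

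Within the Casp11-/- mice the fitted diet difference was larger than in WT for only part of the genes when all 12 libraries were used. It was smaller than in WT for Dnase1l3 (1.92 against 2.23), Fcgr2b (1.25 against 1.46) and Pecam1 (0.19 against 0.65), and larger for the others. In the 11 libraries it was larger in Casp11-/- for all 10 genes. With 12 libraries 0 of 10 genes were called in limma and 1 had an unadjusted p under 0.05, Lyve1 (log2 fold change 2.63 ± 0.77 SE, adjusted p = 0.538), against 0% of all genes called higher and 1.14% higher at the unadjusted p. Without WT-NCD replicate 3, whose removal narrows the shared spread but leaves these 6 libraries as they are, Lyve1 rose (2.63 ± 0.60, limma adjusted p = 0.0310), against 0.117% of all genes called higher. It lost the call in limma without Casp11-/- HFD replicate 2 (0 of 10 called, lowest adjusted p 0.0701), Casp11-/- HFD replicate 3 (0.104), Casp11-/- NCD replicate 1 (0.252) or Casp11-/- NCD replicate 3 (0.0698), while 8 of 10 were called without Casp11-/- NCD replicate 2, 3 of 10 without WT-NCD replicate 1 or 2, and 2 of 10 without WT-HFD replicate 3. On the protein-coding scale with the 11 libraries 3 of 10 rose, against 1.36% of all genes, namely Lyve1 (2.99 ± 0.59, limma adjusted p = 0.0337), Dnase1l3 (2.49 ± 0.55, 0.0411) and Clec4g (2.84 ± 0.64, 0.0422). With 1 more library left out this count was 0 in 8 of the 11 fits, all but those without Casp11-/- HFD replicate 2 or WT-HFD replicate 3 (1 of 10 each) and without Casp11-/- NCD replicate 2 (9 of 10). Leaving out a library changes the shared spread of all genes. The share of all genes called in these fits is not given here on either scale, so a change particular to the 10 genes is not shown. In TPM, 6 of the 10 genes had no overlap of the diets in these libraries, Clec4g, Lyve1, Kdr, Oit3, Dnase1l3 and Gpr182, where 2.08% of all genes had every HFD value higher.

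No gene of the 10 passed the test between the genotypes on either diet. On HFD the values were higher by 0.38 (Dnase1l3) to 0.99 (Lyve1) on the log2 scale in Casp11-/- than in WT, and 0 of 10 passed in limma, with 0 at an unadjusted p under 0.05, against 0% and 0.154% of all genes in either direction. The SE of these differences was 0.77 to 1.18 with 12 libraries. Without WT-NCD replicate 3, 0 of 10 were called in limma as well, against 0% of all genes. The differences were then unchanged, and their SE was 0.52 (Pecam1) to 0.66 (Stab2). On NCD they ran from -0.61 ± 0.77 (SE, Lyve1) to 0.94 ± 0.97 (Pecam1) with 12 libraries, and from -1.32 ± 0.68 (Clec4g) to -0.36 ± 0.58 (Pecam1) without WT-NCD replicate 3, with 0 of 10 called or at an unadjusted p under 0.05 in limma in both. Of all genes 0% and 0.0557% were called there in either direction, and 1.5% and 3.24% had an unadjusted p under 0.05. The direction on NCD thus turned with that library for Dnase1l3, Fcgr2b, Kdr, Oit3, Pecam1, Stab1 and Stab2. The difference of the diet effects between the genotypes was called for 0 of 10 genes in limma, with 0 at an unadjusted p under 0.05 in the 12 libraries and 1 in the 11, Lyve1 (2.08 ± 0.90 SE, limma adjusted p = 1). Of all genes 0% and 0.00557% were called for this difference in either direction, and 0.79% and 2.6% had an unadjusted p under 0.05. A diet effect past the threshold in the Casp11-/- libraries and not in WT is therefore not shown to differ between the genotypes.

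Ratios between genes within a library do not depend on how the library was scaled. In the 11 libraries the level of Stab1 was 0.669 to 1.014 times that of Stab2 and that of Kdr 0.635 to 1.07 times, while Stab2 itself ranged over 32.7 times. Clec4g (1.009 to 2.25), Oit3 (0.998 to 2.02), Gpr182 (0.881 to 1.80) and Dnase1l3 (2.03 to 4.34) also kept their ratio to Stab2 within a range of 2.23 times. The ratio of Lyve1 to Stab2 was looser, at 0.155 to 0.788. The ratio of Fcgr2b to Stab2 was 2.33 to 4.24 in 10 of the libraries and 10.8 in Casp11-/- NCD replicate 1. The Pecam1 ratio was 1.016 to 10.6 in the 5 NCD libraries and 0.579 to 0.904 in the 6 HFD libraries, with no overlap. Without Casp11-/- NCD replicate 1 the highest Pecam1 ratio was 2.35. Stab2 itself was higher on HFD in these libraries (pooled log2 fold change 1.15 ± 0.49 SE), where 17.3% of all genes were called lower in limma. How many genes outside the list had no overlap in their ratio to Stab2 was not counted, so this is not shown to be particular to Pecam1.

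**Figure D4:**
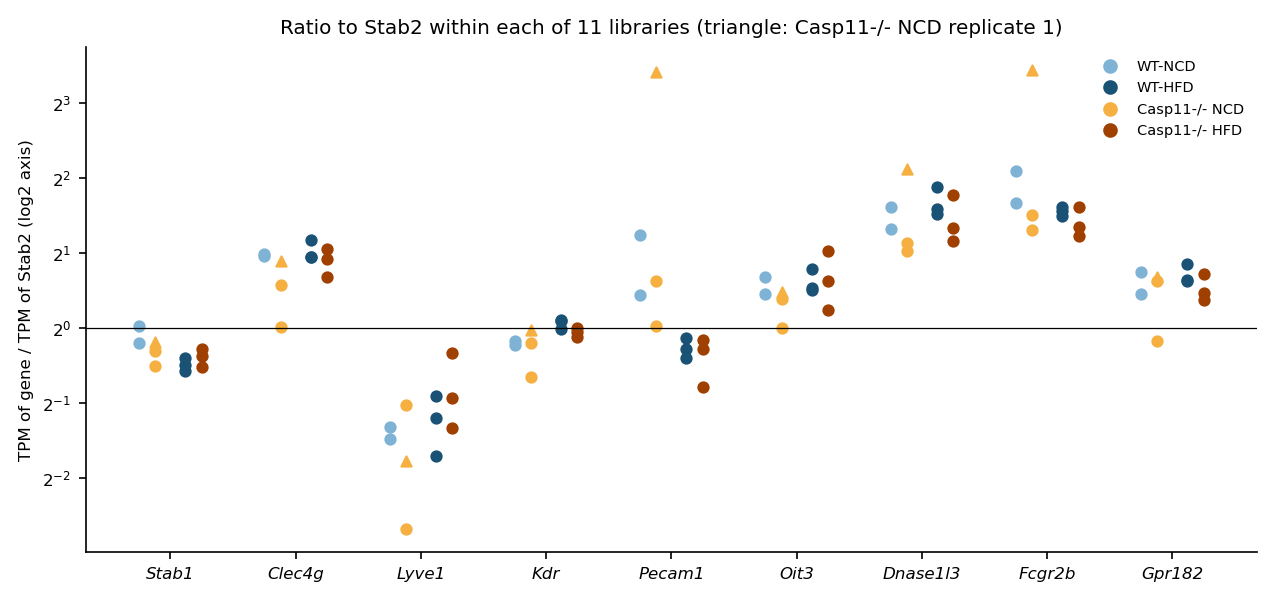
TPM of each gene divided by the TPM of Stab2 in the same library (log2 axis), for the 11 libraries without WT-NCD replicate 3, with triangles for Casp11-/- NCD replicate 1. Of the genes shown, only Pecam1 has all its NCD libraries above its HFD libraries, and how many genes outside the list do so was not counted. Fcgr2b and Pecam1 lie near 10.8 and 10.6 in Casp11-/- NCD replicate 1.

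As a description over the 11 libraries, which share their scaling and their diet groups, the log2(TPM + 1) values of the 8 genes other than Pecam1 and Fcgr2b had Pearson's r of 0.908 to 0.994 in all 28 pairs. Fcgr2b had 0.817 to 0.936 with these 8 genes and Pecam1 0.238 to 0.490. Among 12358 protein-coding genes, those most like the mean of the 10 genes over the 11 libraries were Eng (r = 0.993), a coreceptor for bone morphogenetic proteins, Gpihbp1 (0.993), which anchors lipoprotein lipase on capillary walls, Tie1 (0.992), an endothelial receptor tyrosine kinase, Mmrn2 (0.992), an endothelial matrix glycoprotein, and Tinagl1 (0.991), a matrix protein. All of them share the swings of the same libraries.

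Wider endothelial lists moved with the 10 genes. Of 20 pan-endothelial genes, such as those for junctions and for angiopoietin receptors, 6 rose and 0 fell on HFD in the pooled limma fit of 11 libraries, with a median of 1.03 on the log2 scale, and of 20 further genes of sinusoidal endothelium 7 rose and 0 fell, with a median of 1.10, where 1.07% of all genes were called higher and their median was -0.39. With all 12 libraries 0 of 20 were called in each list in limma, with 10 and 18 higher at an unadjusted p under 0.05, against 1.67% of all genes. On the protein-coding scale with 11 libraries 14 and 19 rose, against 4.3% of all genes. The strongest of the wider endothelial lists by p in TPM were Cd36 (1.88 ± 0.39 SE, limma adjusted p = 0.00279), a fatty acid and lipoprotein receptor that macrophages also carry, F8 (2.03 ± 0.45, 0.00609), which encodes coagulation factor VIII, Calcrl (1.52 ± 0.37, 0.0117), a receptor for adrenomedullin, and Mrc1 (1.71 ± 0.43, 0.0151), the mannose receptor, which Kupffer cells carry as well.

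Of 14 genes that mark positions along the sinusoid, 12 were tested, and 3 rose in the 11 libraries. They were Msr1 (1.32 ± 0.41 SE, limma adjusted p = 0.0326), Adam23 (1.25 ± 0.39, 0.0329), and Cdh13 (0.78 ± 0.26, 0.0396). Msr1 encodes a macrophage scavenger receptor, and which cells of the fraction made it was not tested. Of 15 genes of capillarization and larger vessels, 14 were tested with a median of 0.21, 1 rose and 1 fell. Over all genes in the same fit 1.07% were called higher and 17.3% lower, so that the share called lower among the vessel genes was below that of all genes. Vcam1, a leukocyte adhesion molecule, rose (1.31 ± 0.36, limma adjusted p = 0.0214), and Klf2, a flow-responsive transcription factor that lymphocytes also use, fell by 1.97 ± 0.43 (0.00539). Lamb1 (-0.95 ± 0.37, limma adjusted p = 0.0686), Klf4 (-0.83 ± 0.44, 0.172) and Cd34 (-0.48 ± 0.27, 0.195), the marker of continuous capillaries, did not pass. With all 12 libraries none of these genes was called in limma, with 6 zonation genes and 5 capillarization genes higher and 1 capillarization gene lower at an unadjusted p under 0.05, against 1.67% of all genes higher and 15.2% lower.

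**Figure D5:**
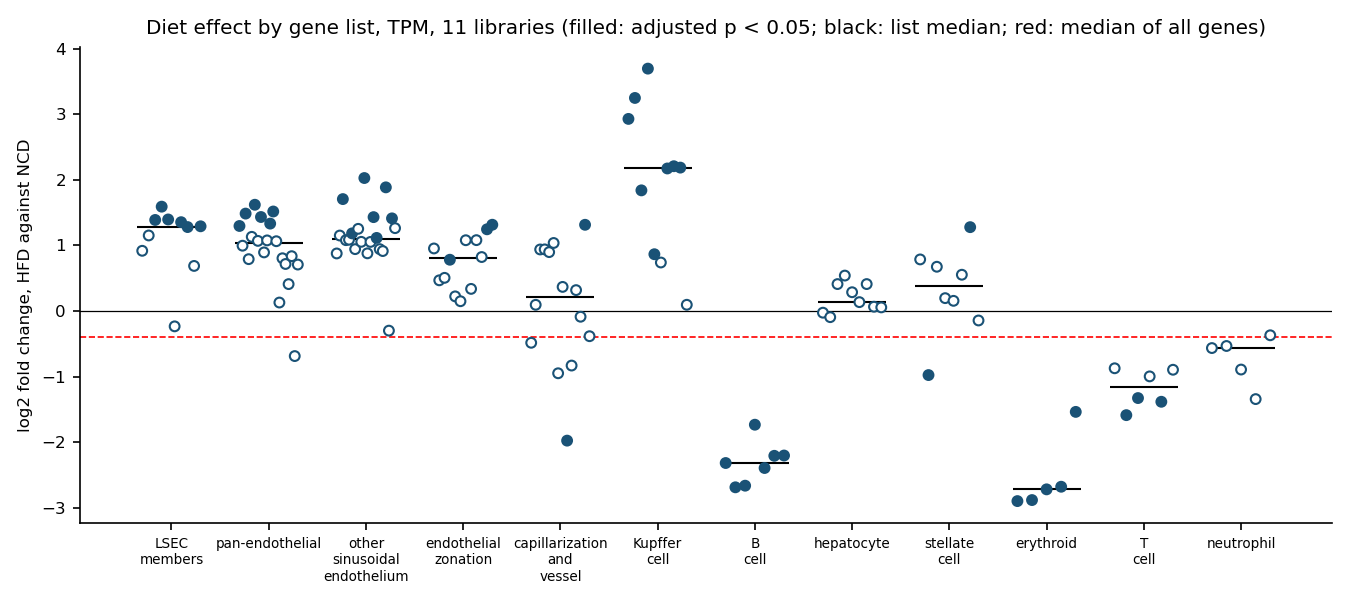
Log2 fold change on HFD against NCD, pooled over genotypes, in TPM for the 11 libraries, 1 point per gene, by gene list, with filled points for an adjusted p under 0.05, black lines for list medians and a red line for the median of all genes (-0.39). The list named LSEC members holds the 10 sinusoidal endothelial genes, whose median was 1.29, beside 2.18 for the Kupffer cell list and -2.32 for the B cell list.

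The summed level of the 10 genes varied by 12.02 times over the 11 libraries, and its ratio to the summed level of the 20 pan-endothelial genes from 1.67 to 2.29, at 1.77 to 2.29 on NCD and 1.67 to 1.92 on HFD. The Kupffer cell list also shifted with diet, with 8 of 10 genes risen and 0 fallen in the limma fit of 11 libraries (6 risen with 12) and summed levels of 65.7 to 382 TPM on NCD and 301 to 917 TPM on HFD. All 7 B cell genes fell in the 11 libraries, where 17.3% of all genes were called lower (0 of 7 called with 12 in limma, 2 lower at an unadjusted p under 0.05, against 15.2% of all genes), from 452 to 1880 TPM on NCD to 140.2 to 322 TPM on HFD in sum. All 5 erythroid genes and 3 of 6 T cell genes also fell, while 0 of 9 hepatocyte genes were called in limma in either fit, with sums of 8142 to 28512 TPM on NCD and 11018 to 23431 TPM on HFD, and 0 of 5 neutrophil genes were called. Of 8 stellate cell genes 1 rose, Rgs5, and 1 fell, Reln, a share called lower under that of all genes. The ratio of the summed endothelial to the summed B cell level was 0.110 to 0.990 on NCD and 3.17 to 7.15 on HFD, and its ratio to the Kupffer cell sum was 1.27 to 8.01 and 1.16 to 4.31. The part of these other cell types in the diet difference of the 10 genes was not tested. In RNA from a mixed fraction, more endothelial cells and more of these transcripts per endothelial cell cannot be told apart.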

How the data were processed

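Total RNA of the fraction was sequenced as stranded libraries, and per the labels the reads were aligned with STAR to mm10 (GRCm38.p6); the version and annotation are not given in the sources used here. The authors computed TPM from the alignments in Qlucore Omics Explorer and deposited 1 table per library, with low values at a common floor of 1.01 whose origin is not given in the sources used here. Since these deposited values sum to slightly over 1000000, they were handled as a TPM-like score. Depth is not in the files, so no counting interval is given.

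The 10 genes and all lists were chosen with earlier results of these data known. Genes that exceeded the floor in 3 or more libraries were fitted on log2(TPM + 1) in limma 3.58.1 (R 4.3.3), with 4 group means, a spread trended on expression, two-sided tests and Benjamini-Hochberg adjustment over all genes, called under 0.05. The fit was tested on simulated data. As an alternative, each library was rescaled so that its protein-coding genes (RefSeq GRCm38.p6) summed to the median over the libraries, with low values raised to a common floor. Other alternatives were another pseudocount, other filters, the 1% highest genes removed, no trend, a replicate block, the spread of the compared groups alone, and each library left out. All 10 genes are named. From the wider endothelial lists, up to 4 genes of smallest p in each direction (11 libraries, pooled) and those behind counts of 5 or fewer are named, and the 5 protein-coding genes most correlated with the mean of the 10. Positions are from GENCODE M21. No libraries held identical values.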

Additional observations from a re-analysis of the deposited data

How the results depend on the processing

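The genotype comparisons, the interaction and the WT diet comparison had 0 of 10 genes called in limma in every alternative, including those chosen after seeing the data (a further library left out of the 11, and a replicate block on the 11). In the pooled diet comparison, with 0 called in all 12 libraries, the count was 1 with genes above the floor in every library, 1 with protein-coding genes rescaled, 7 when these were rescaled without WT-NCD replicate 3, and 0 to 9 when libraries were left out. In the Casp11-/- diet comparison it was 4 with the spread of the compared groups alone, 3 rescaled without WT-NCD replicate 3, and 0 to 9 with libraries left out. For the rescaled counts of 1, 7 and 3 the share of all genes called stands in the sections above. For the other alternatives that share is not given here.

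The labels do not say that a replicate number marks a shared source, so the libraries were taken to share only a number. In the 12 libraries 7 of 18 same-number pairs had correlated deviations above 0.1 (r from -0.64 to 0.47, median -0.11). Of pairs of other numbers 17 of 36 did (median 0.09). In the 11 libraries 8 of 15 same-number pairs did (r from -0.33 to 0.47, median 0.17), against 10 of 30 others (median -0.06). There 6 of 11 libraries correlated best with one of their own number. The 2 WT-NCD libraries left there deviate by equal and opposite amounts, so these correlations cannot decide whether a number marks a shared source. A replicate block called 0 of 10 in the 12 libraries in every comparison. In the 11 libraries it called 6 pooled (6 without the block) and 8 in Casp11-/- (1 without it). With protein-coding genes rescaled it called 7 and 7 (7 and 3 without it). For the fits with a block the share of all genes called is not given here, so whether calls rose beyond the 10 genes is left unstated. With that block the WT log2 fold change was -0.43 for Stab1, -0.0587 for Stab2, -0.26 for Fcgr2b and -0.995 for Pecam1 (-0.15 rescaled), and the pooled value of Pecam1 was -0.40.

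With libraries left out, the WT values ran from -0.30 to 2.17 for Stab1, -0.0187 to 2.76 for Stab2, -0.0875 to 2.46 for Oit3, -0.17 to 2.26 for Fcgr2b and -1.01 to 1.33 for Pecam1. Pecam1 ran from -0.17 to 0.92 in Casp11-/- and from -0.41 to 0.76 pooled. Removing the 1% of genes with the highest mean also removed Clec4g, Dnase1l3 and Fcgr2b. That fit left 0 of 7 called in limma in each comparison, with 6 at an unadjusted p under 0.05 in the pooled one. How many of all genes reached that p in this fit is not given here. The cause of these shifts was not tested. Depth, and counts at low levels, could not be judged from these values.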
